A study of Bos taurus with 16 samples.

Results

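The antioxidant enzymes described here are 10 genes of bovine blastocysts, the superoxide dismutases SOD1 and SOD2, catalase (CAT), the peroxiredoxins PRDX1, PRDX2, PRDX3, PRDX5 and PRDX6, thioredoxin (TXN) and thioredoxin reductase 1 (TXNRD1). They were taken by gene symbol from 22358 loci, and each symbol stood at 1 locus. Embryos of Holstein dairy cows were sequenced as 16 pools, 2 pools from each of 8 cows. From calving until the embryos were flushed, 4 cows ate the control diet, in which methionine made up 1.9% of the metabolizable protein, and 4 ate the methionine-rich diet, the same basal ration formulated to 2.4%. Pools are named by diet, cow and pool number (C1.1 to C4.2 for control and M5.1 to M8.2 for methionine-rich). The labels call the tissue IVF embryos, whereas the study's methods describe superovulated and inseminated cows whose embryos were recovered by flushing. All pools were of the same breed and held expanded blastocysts, with 1 or 2 embryos in each control pool and 1 to 4 in each methionine-rich pool. The number of embryos thus moved with the diet. The study's supplement also gives a lower RNA quality number in M5.1, M5.2, M6.1, M6.2 and M7.1 than in any control pool measured. It was not lower in the other methionine-rich pools. The part of RNA quality in the levels was not tested.

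Superoxide is a by-product of oxidative metabolism, and the dismutases turn it into hydrogen peroxide. Catalase, in peroxisomes, splits hydrogen peroxide into water and oxygen, while the peroxiredoxins reduce peroxides with a reactive cysteine. Most of them are restored by thioredoxin, which thioredoxin reductase recharges with NADPH. Methionine is a precursor of cysteine and so of glutathione, the other main thiol of the cell, and methionine residues in proteins can be oxidised and repaired.

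Between 5624126 and 7826542 reads were counted per pool in 15 pools, and 1745048 in C3.2. That pool was left out of the comparisons, as the study's methods did, which gave 7 pools of the control and 8 of the methionine-rich diet, with 1 pool for cow 3. Levels are given as CPM, the count scaled by the total of its pool and not by transcript length, so they are compared between pools and not between genes. All 10 genes passed the filter of the comparison, and each had at least 10 counts in every one of the 15 pools, as did 4970 of the 10519 loci tested. In pooled embryos, fewer cells of a type and less RNA per cell cannot be told apart. Trophectoderm, the outer layer of the blastocyst, was represented by a summed level of 8 markers between 2510 and 7940 CPM, mostly KRT18. CDX2 lay between 0 and 27.3 CPM. Of the interferon genes, IFNT was at or near 0 and IFNT2 lay between 0 and 21.2 CPM. POU5F1, NANOG and SOX2 of the inner cell mass summed to between 33.1 and 115 CPM, and the hypoblast markers GATA6, PDGFRA and SOX17 to between 91.2 and 336 CPM, with SOX17 at 0 in every pool and the other two present in each. C2.1 stood apart with 8 leukocyte markers summing to 2540 CPM, against 0 to 30.6 CPM in the other 14 pools. Nearly all of it was LAPTM5 (1240 CPM), NKG7, TYROBP, SLAMF7 and LCP1, which the study lists among its most significant genes from these same data. Of the other markers, CORO1A (2.49 CPM) and CD52 (7.65 CPM) were also highest in C2.1. PTPRC, at 3.2 CPM, was not, as it reached 6.68 CPM elsewhere. Over the 15 pools, erythrocyte markers summed to between 1.01 and 45.5 CPM, nearly all ALAS2 with HBB at or near 0. Cumulus and granulosa markers summed to between 1.5 and 57.0 CPM, with CYP19A1 having the most counts. In C2.1, however, INHBA (26.3 CPM) was above CYP19A1 (22.4 CPM), and INHBA reached 18.2 CPM in another pool. Oviduct and uterine markers summed to at most 4.71 CPM with PAEP at 0.

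None of the 10 enzymes passed the rule of the study, a false discovery rate (FDR) under 0.10 with at least a 2-fold difference between the diets in the edgeR exact test. The same rule called 110 of the 10519 loci, or 1.05%. This is the yield of the fit run here, and the study itself reported more genes called, out of a similar number tested. The edgeR quasi-likelihood test and limma voom called 0 members and 0% of all loci, and DESeq2 called 0 members and 0.637% of loci. At an unadjusted p under 0.05, the exact test and the quasi-likelihood test passed 0 members, against 8.54% and 8.64% of loci, voom passed 0 against 4.00%, and DESeq2 passed 1, CAT, against 7.42%. The fold change was under 2 in 9 of the 10 members and in 75.3% of loci. The log2 fold change of methionine-rich over control was positive for 7 members and negative for CAT, PRDX1 and TXNRD1, and its median was 0.14 over the members and -0.05 over all loci tested.

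**Figure D1:**
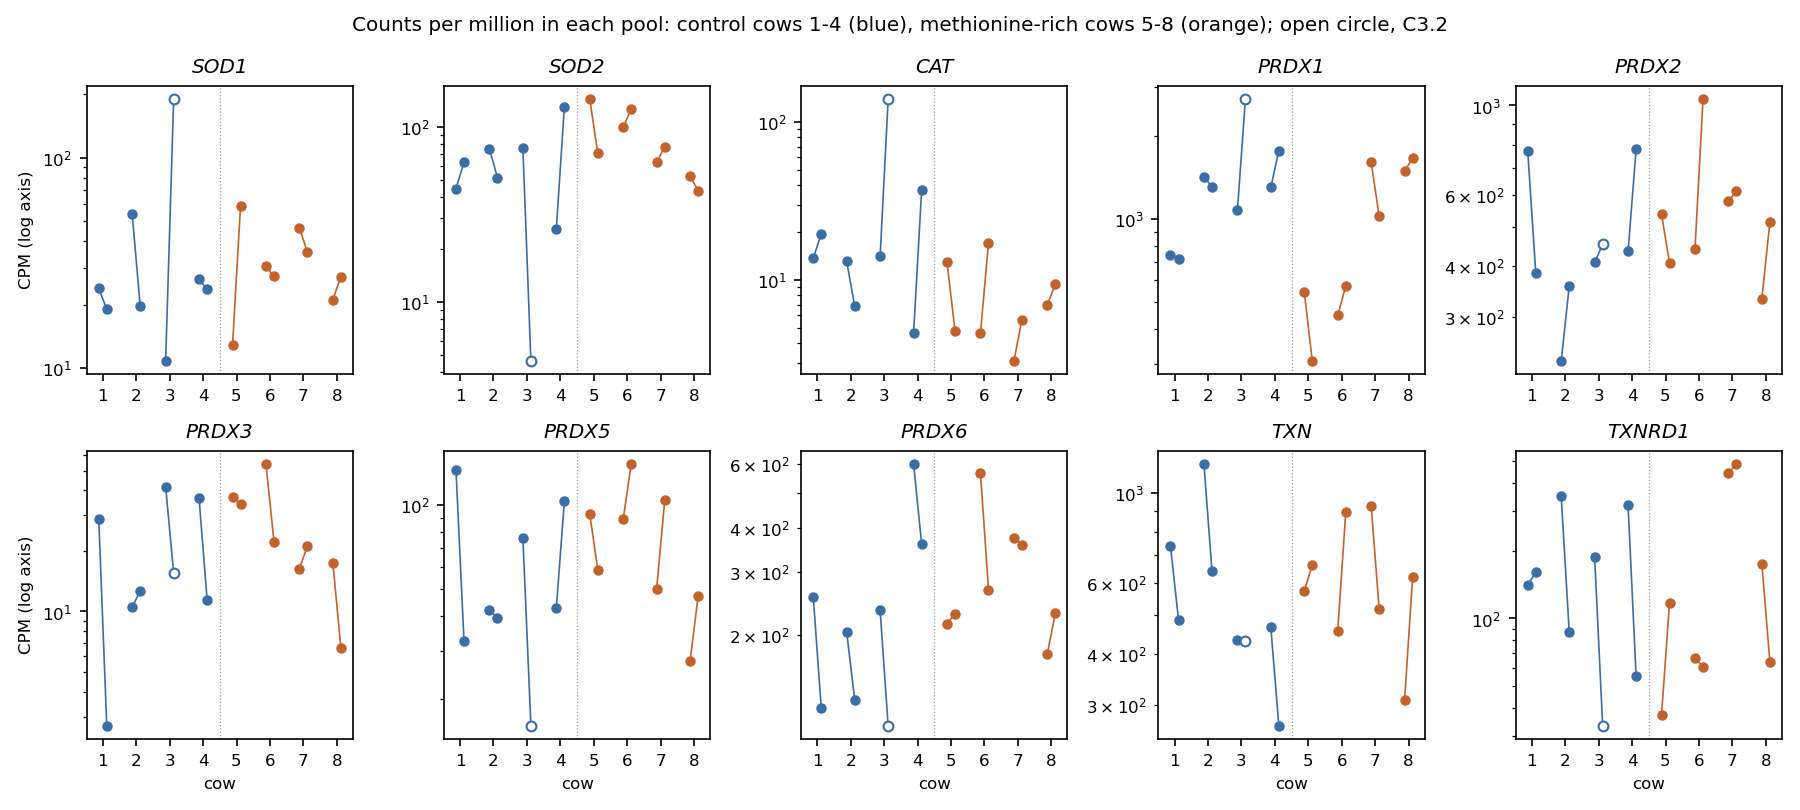
Level of each of the 10 enzymes as CPM on a log axis, with 1 panel for each gene and the cows along the horizontal axis, control cows 1 to 4 in blue and methionine-rich cows 5 to 8 in orange. Points are pools, a line joins the pools of a cow, and the open circle is C3.2, which the comparisons leave out. The pools of the diets overlap for every enzyme, PRDX1 is low in cows 5 and 6, and TXNRD1 is high in both pools of cow 7.

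Catalase was the member with the largest difference. In the control pools CAT ranged from 4.62 CPM in C4.1 to 36.9 CPM in C4.2, with a median of 13.7 CPM. The methionine-rich pools ranged from 3.07 CPM in M7.1 to 17.2 CPM in M6.2, with a median of 6.29 CPM. The pools of the diets overlapped, although the control median lay above most methionine-rich pools. The mean was 15.6 ± 10.6 CPM (SD, n = 7 pools) in control and 8.08 ± 4.83 CPM (SD, n = 8 pools) in methionine-rich pools, and the log2 fold change was -1.001, with an edgeR FDR of 0.73 in the exact test and 0.61 in the quasi-likelihood fit. The DESeq2 log2 fold change was -0.99 ± 0.48 (SE), and the voom estimate, which takes pools of a cow as correlated, was -0.92 with a 95% confidence interval from -2.01 to 0.18.

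When the pools of a cow were averaged on the log2 (CPM + 1) scale, CAT was the only member whose 4 control cows all lay above the 4 methionine-rich cows, which held in either direction for 2.29% of all loci. The difference was -0.81 with p = 0.0286 by the exact permutation test over the 70 assignments of 8 cows (two-sided), which is the smallest p these assignments can give, and the p adjusted over all loci was 1. On the CPM scale without logarithms the cows were not apart for CAT or any other member, against 2.21% of loci that were. The control cows averaged 16.7, 9.98, 14.1 and 20.8 CPM, and the methionine-rich cows 8.85, 10.9, 4.34 and 8.21 CPM, so that cow 6 lay above cow 2, and the exact permutation p was 0.0571. Over the other treatments of the data, the exact permutation p of CAT lay between 0.0286 and 0.114, the highest being without C2.1. Pool C4.2 held 23.5% of the CAT counts of the 15 pools and also the highest level of the 5 stroma markers, 138 CPM, mostly COL1A2. Without cow 4 the log2 fold change of CAT was -0.84 (FDR = 0.89, edgeR exact test), and the part of these markers in the result was not tested.

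Of the dismutases, SOD1 is the copper and zinc enzyme of the cytosol. SOD1 ranged from 10.8 CPM in C3.1 through a median of 23.7 CPM to 53.9 CPM in C2.1 among control pools, and from 12.8 CPM in M5.1 through 28.8 CPM to 58.9 CPM in M5.2 among methionine-rich pools. The lowest and the highest methionine-rich pools thus came from the same cow, and the diets overlapped over almost the whole range. The means were 25.3 ± 13.6 CPM (SD, n = 7 pools) and 32.4 ± 14.52 CPM (SD, n = 8 pools), a log2 fold change of 0.36 (FDR = 1, edgeR exact test) with a voom interval from -0.53 to 1.29. The highest control value was in C2.1, the pool with leukocyte transcripts, and without that pool the log2 fold change was 0.72 (FDR = 0.86, edgeR exact test). The part of the leukocyte transcripts in the result was not tested.

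SOD2, the manganese enzyme of mitochondria, ranged from 26.2 CPM in C4.1 to 129.6 CPM in C4.2 around a median of 62.7 CPM in control pools. In methionine-rich pools SOD2 ranged from 43.1 CPM in M8.2 to 144.3 CPM in M5.1 around a median of 73.8 CPM. Here the lowest and the highest control pools were those of cow 4, each of a single embryo. SOD2 had a log2 fold change of 0.29 (FDR = 0.998, edgeR exact test), with a voom interval from -0.33 to 1.07. The cow means, 53.6, 63.2, 76.0 and 77.9 CPM in control and 107.4, 113.2, 69.95 and 47.8 CPM in methionine-rich cows, overlapped because cows 5 and 6 lay above all control cows and cow 8 below them, and p was 0.286 by the exact permutation test.

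Among the peroxiredoxins, PRDX1 and PRDX2 are cytosolic enzymes. PRDX1 ranged from 715 CPM in C1.2 to 1765 CPM in C4.2 in control pools, with a median of 1301 CPM, and from 307 CPM in M5.2 to 1656 CPM in M8.2 in methionine-rich pools, with a median of 797 CPM. The methionine-rich cows fell on both sides, with cows 5 and 6 at 426 and 511 CPM, below every control pool, and cows 7 and 8 at 1313 and 1574 CPM, within the range of the control pools. The control cows averaged 729, 1364, 1074 and 1533 CPM. PRDX1 had a log2 fold change of -0.24 (FDR = 1, edgeR exact test), a voom interval from -1.32 to 0.26 and, over cow means, a p of 0.371 by the exact permutation test. Without cow 5 the log2 fold change was 0.03, and with the number of blastocysts fitted in the quasi-likelihood test it was 0.30. The pools of cows 5 and 6 held 3 or 4 embryos each and had the lower RNA quality numbers given above. M7.2 also held 3 embryos, and M7.1 also had a lower RNA quality number. The part of either in the PRDX1 levels was not tested.

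PRDX2 ranged from 233 CPM in C2.1 to 779 CPM in C4.2 (median 409 CPM) in control pools and from 332 CPM in M8.1 to 1037 CPM in M6.2 (median 527 CPM) in methionine-rich pools. M6.2 stood clear of the other methionine-rich pools, and the remaining values of the diets overlapped. For PRDX2 the log2 fold change was 0.21 (FDR = 1, edgeR exact test), with a voom interval from -0.38 to 0.81, the narrowest range among the members.

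PRDX3 is the mitochondrial peroxiredoxin, and it was the member with the fewest counts in a single pool, 18 in C1.2. It ranged from 2.70 CPM in C1.2 to 41.8 CPM in C3.1 in control pools (median 12.7 CPM) and from 6.62 CPM in M8.2 to 54.1 CPM in M6.1 in methionine-rich pools (median 21.7 CPM). The other pool of cow 1, C1.1, was at 28.9 CPM, which makes 10.7-fold between pools of the same cow. For PRDX3 the log2 fold change was 0.27 (FDR = 1, edgeR exact test), with a voom interval from -0.60 to 1.69.

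PRDX5, which is found in mitochondria, peroxisomes and the cytosol, ranged from 32.4 CPM in C1.2 to 134.2 CPM in C1.1 in control pools (median 42.7 CPM) and from 27.6 CPM in M8.1 to 140.9 CPM in M6.2 in methionine-rich pools (median 74.0 CPM). Both ends of the control range came from cow 1. PRDX6, which draws on glutathione rather than on thioredoxin and also acts as a phospholipase, ranged from 125 CPM in C1.2 to 602 CPM in C4.1 in control pools (median 235 CPM) and from 178 CPM in M8.1 to 567 CPM in M6.1 in methionine-rich pools (median 250 CPM). Their log2 fold changes were 0.14 and 0.13, with voom intervals from -0.62 to 0.97 and from -0.50 to 0.97 and an FDR of 1 in the edgeR exact test. For both genes the spread among pools of a diet was wider than the difference between the diets.

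TXN, the small protein that hands electrons to the peroxiredoxins, ranged from 266 CPM in C4.2 to 1177 CPM in C2.1 in control pools (median 485 CPM) and from 308 CPM in M8.1 to 928 CPM in M7.1 in methionine-rich pools (median 596 CPM). The means were 601 ± 296 CPM (SD, n = 7 pools) and 620 ± 210 CPM (SD, n = 8 pools), and the log2 fold change was 0.03 (FDR = 1, edgeR exact test) with a voom interval from -0.55 to 0.77. Control pools supplied the lowest and the highest value, so the methionine-rich range lay inside that of control. The highest was in C2.1, and without that pool the log2 fold change was 0.34.

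TXNRD1, a selenoprotein, ranged from 55.4 CPM in C4.2 to 350 CPM in C2.1 in control pools (median 160.5 CPM) and from 37.2 CPM in M5.1 to 487 CPM in M7.2 in methionine-rich pools (median 92.1 CPM). Both pools of cow 7, at 443 and 487 CPM, were above all other pools and differed 1.10-fold from each other. The cow means were 150.7, 219, 187 and 187 CPM in control and 77.5, 63.8, 465 and 119 CPM in methionine-rich cows, so that 3 methionine-rich cows lay below all control cows and cow 7 lay above them. TXNRD1 had a log2 fold change of -0.02 (FDR = 1, edgeR exact test), with a voom interval from -1.61 to 0.84, and the difference of cow means was -0.41 with p = 0.6 by the exact permutation test. Every cow was left out in turn, and cow 7 is named here because of its values. Without cow 7 the difference of cow means was -1.06 with an exact permutation p of 0.0286. This is the smallest p that the assignments of the remaining cows can give. Without that cow the cow means of TXNRD1 and CAT were apart, as were those of 4.62% of all loci. In that set the log2 fold change was -1.13, and its FDR was 0.44 by the edgeR exact test.

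**Figure D2:**
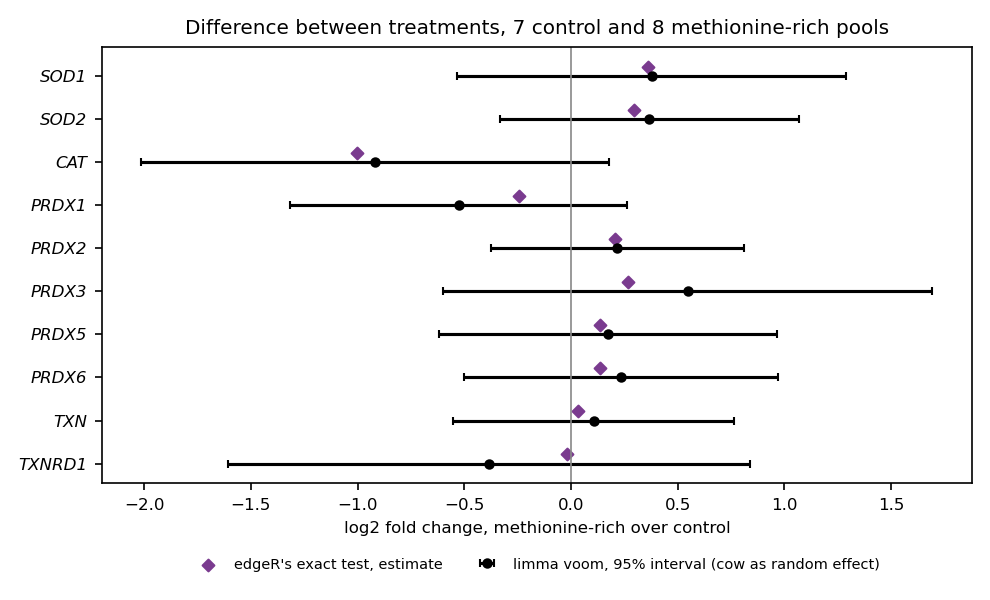
Log2 fold change of methionine-rich over control pools for each enzyme, with purple diamonds for the edgeR exact test, black points for limma voom and horizontal bars for the 95% confidence interval of voom. The intervals of all 10 enzymes include 0, CAT has the lowest estimate by either method, and TXNRD1 and PRDX3 have the widest intervals.

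The 95% intervals of voom give what these pools leave possible. The interval included 0 for each of the 10 members, and its lower bound passed a 2-fold lower level for CAT, PRDX1 and TXNRD1, and its upper bound a 2-fold higher level for SOD1, SOD2 and PRDX3. For PRDX2, PRDX5, PRDX6 and TXN the whole interval stayed within 2-fold. These intervals come from 15 pools with an estimated correlation of 0.035 between pools of a cow, so they reflect mainly the spread between pools.

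The spread among the 15 pools was large beside these differences. The coefficient of variation of the CPM ranged from 39.96% for TXN and 40.03% for PRDX2 to 74.9% for CAT and 80.1% for TXNRD1, with a median of 48.6% over the members. The median was 80.4% over all loci tested and 52.7% over the 4970 loci that reached 10 counts in each pool. Counting error alone would give between 1.33% and 13.7% for the members. Pools of the same cow differed by a median of 0.69 on the log2 (CPM + 1) scale over the members and pools of different cows by 0.80, and 6 of the 10 members were closer within a cow, against 2554 of those 4970 loci.

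**Figure D3:**
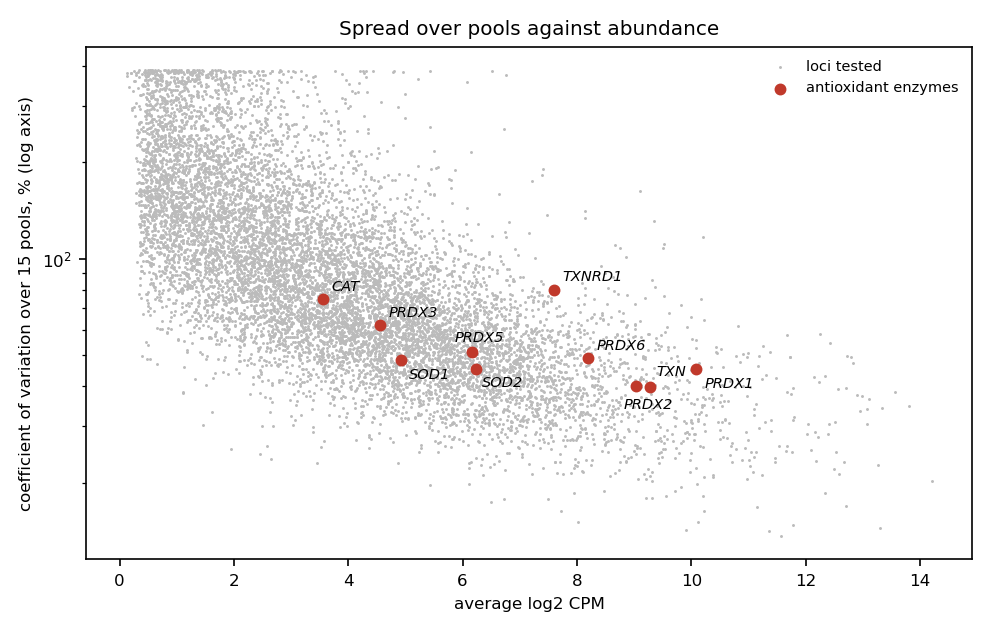
Coefficient of variation of the CPM over 15 pools, in percent on a log axis, against the average log2 CPM, with grey points for the 10519 loci tested and red points for the 10 enzymes. The enzymes lie between 39.96% for TXN and 80.1% for TXNRD1, and loci with low average levels spread up to several times more.

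PRDX1 and SOD1 were closest within a cow. For PRDX1 the median log2 difference was 0.35 between pools of a cow and 0.87 between cows, and its pools differed between 1.04-fold in cow 1 and 1.78-fold in cow 5. For SOD1 the medians were 0.34 and 0.75. TXNRD1 was the reverse, with 1.44 within a cow and 1.24 between cows, and its pools differed 5.75-fold in cow 4 and 4.02-fold in cow 2. CAT differed 7.99-fold between the pools of cow 4, which were single embryos.

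The 10 genes took a similar joint share of the counts on both diets. Counts of PRDX1, PRDX2 and TXN made up most of that share in every pool, so it says little of the other members. The share was 0.201% in C1.2, 0.289% in the median control pool and 0.358% in C2.1, and it was 0.195% in M5.2, 0.289% in the median methionine-rich pool and 0.411% in M7.1. The lowest methionine-rich pool was thus from cow 5 and the highest from cow 7, and the medians of the diets were equal to 3 digits.

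Over the 15 pools the levels of most pairs of members were weakly related. Pearson's r of log2 levels over the 45 pairs of members had a median of -0.03 and ran from -0.49 for SOD2 and TXNRD1 to 0.79 for PRDX2 and PRDX5. It was above 0.5 in 4 pairs, which were PRDX2 with PRDX5, PRDX3 with PRDX6 (0.57), SOD2 with PRDX5 (0.56) and SOD1 with TXN (0.50), and under -0.5 in 0 pairs. These values describe pools that share cows, depth and amplification, and no p is given for them. Among the 4970 loci that reached 10 counts in each pool, the profile most like that of PRDX3 was KIT, with r = 0.92, that of TXN was the ribosomal protein gene RPS15A, with r = 0.85, and that of SOD2 was TYMS, with r = 0.84. For PRDX5 it was GPR108 (0.83), for PRDX2 COQ6 (0.83), for PRDX6 RHOB (0.82), for SOD1 SATB1 (0.80), for CAT GNB2L1 (0.79), for PRDX1 LMNB2 (0.77) and for TXNRD1 SSSCA1 (0.74), each over 15 pools. Each of these is the highest value found for its member among those loci.

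**Figure D4:**
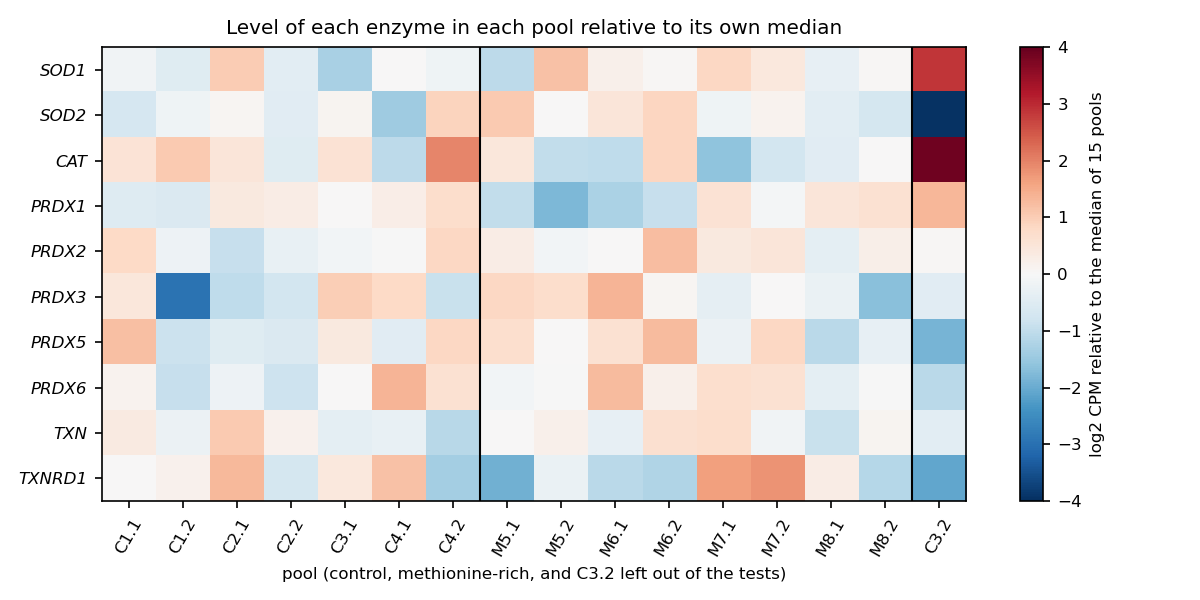
Level of each enzyme in all 16 pools as the log2 ratio to its median over the 15 analysed pools, with C3.2 set apart. Colours change from gene to gene within a pool, TXNRD1 is high in both pools of cow 7, and C3.2 is high in SOD1 and CAT and low in SOD2.

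The pool that was left out, C3.2, had the members in other proportions, with 0.41% of its counts on the 10 genes. SOD1 was at 190 CPM (331 counts), 3.22 times the highest of the other 15 pools, CAT at 140 CPM (244 counts), 3.79 times the highest, and PRDX1 at 2708 CPM, 1.53 times the highest. SOD2 was at 4.58 CPM (8 counts), PRDX5 at 16.0 CPM, PRDX6 at 112 CPM and TXNRD1 at 33.2 CPM, all below the lowest of the other pools. PRDX2, PRDX3 and TXN were within the range of the other pools. How many of all loci lay outside that range in C3.2 is not given here. Markers of other cells also moved in C3.2, where the 8 leukocyte markers summed to 166 CPM, 159 CPM of it PTPRC, the 5 stroma markers to 88.8 CPM, 77.4 CPM of it DCN, and the 3 hypoblast markers to 520 CPM, above every other pool. PTPRC was at most at 6.68 CPM and DCN at 2.19 CPM in the other pools. The study's methods removed the pool for its low proportion of exonic reads, and the part of either in these levels was not tested. With all 16 pools the log2 fold change of CAT was -2.42 (FDR = 0.0548, edgeR exact test), which passed the rule, that of SOD1 turned to -0.87, and 341 loci were called, 282 of them higher in control. The call of CAT thus held only with the pool that the study's methods removed.

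A wider list of 46 genes of the same pathways was counted beside the members, of which 45 had a locus in the data and 28 were tested. Of these 28, 1 was called by the exact test, 15 had a positive and 13 a negative log2 fold change, and the median was 0.01. Of all 10519 loci tested, 1.05% were called, 4888 had a positive and 5631 a negative log2 fold change, and the median was -0.05. By role, 0 of 1 tested dismutation gene, 0 of 3 other peroxide-removing enzymes, 0 of 7 of the thioredoxin system, 0 of 6 of glutathione and glutaredoxin, 1 of 3 methionine sulfoxide reductases and 0 of 8 regulators and targets were called. The extracellular dismutase SOD3 had 0 counts in the 15 pools, which allows up to between 0.383 and 0.533 CPM in a pool, and so did GPX5 and MAFK. These limits cover counting error only.

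The called gene was MSRB3, a reductase of oxidised methionine residues, with a log2 fold change of -6.37 (FDR = 0.0832, edgeR exact test). It had 252 counts in all, 92.5% of them in C4.1, and medians of 0.404 CPM in control and 0 CPM in methionine-rich pools. The quasi-likelihood test gave an FDR of 0.30, limma voom one of 0.99, and pools summed by cow 0.21 in the exact test. Without cow 4 the gene did not reach the filter. MSRA, another reductase, had 74.7% of its counts in C2.1 and a log2 fold change of -3.57. SEPX1, the older name of MSRB1, had 79.4% in M7.1 and 2.50, and NQO1, a quinone reductase and target of NFE2L2, had 59.9% in M6.1 and 3.004. None of these 3 was called. In SESN1, SESN3 and GCLC, 64.6%, 60.9% and 71.5% of the counts also stood in a single pool, beside log2 fold changes of 2.07, 1.85 and 1.35. GCLC is the catalytic subunit of glutamate-cysteine ligase, an enzyme of glutathione synthesis. CCS, the copper chaperone of SOD1, TXNL1 and the glutathione reductase GSR, whose counts were spread more evenly, had -1.17, -0.43 and 0.42. In the members, the highest pool held between 11.2% and 23.5% of the counts. The median was 13.6% over the members and 19.5% over all loci tested. Many of those loci lacked 10 counts in some pool, which every member reached, so these medians are not a like comparison.

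**Figure D5:**
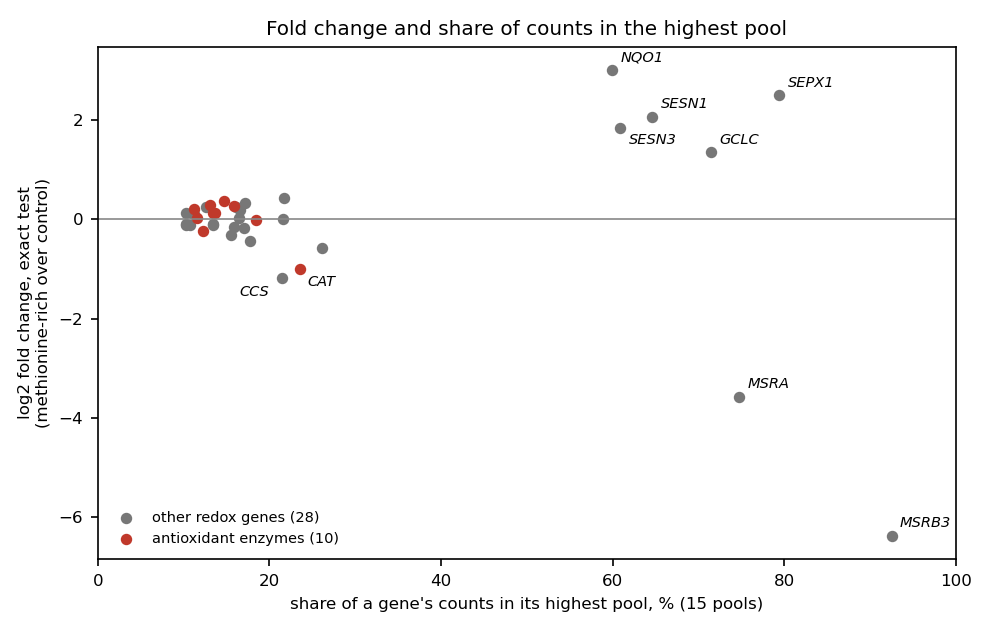
Log2 fold change of methionine-rich over control pools against the percentage of a gene's counts that lay in its highest pool, for the 10 enzymes and the 28 tested genes of the wider list. The enzymes lie at 23.5% or less, with log2 fold changes between -1.001 and 0.36, and the 6 genes with log2 fold changes of 1.85 or more in either direction have at least 59.9% of their counts in a single pool, MSRB3 being farthest at 92.5%.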

How the data were processed

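RNA of pools of expanded blastocysts was extracted, amplified and sequenced on an Illumina HiSeq. The authors mapped the reads to bosTau7 with TopHat2 2.0.4, assembled transcripts with Cufflinks 2.0.2 and counted reads per locus with HTSeq, per the labels and the study's methods. The deposited values are whole-number counts without normalization, in 22552 rows per pool, of which 182 loci stood under several names and were entered once. The strand setting and each pool's lane and sire are not given in the sources used here. Amplification means that counts are not independent molecules. In R 4.3.3 with edgeR 4.0.16, the 10519 loci whose CPM over 15 pools summed to 15 or more were normalized by TMM and compared by the exact test with Benjamini-Hochberg adjustment over all of them, as in the study's methods (FDR under 0.10 and at least 2-fold). The edgeR quasi-likelihood test, DESeq2 1.42.0 (standard errors) and limma 3.58.1 (voom, cow as random effect, estimated correlation 0.035) were run beside it. Cow means of log2(CPM + 1) were compared by the two-sided exact permutation test. Pools of a cow are not independent, so that exact test and quasi-likelihood p-values measure the spread between pools. The fits were tested on simulated data with 200 changed loci. The simulated pools were independent and spread less than the real ones, so they do not show how the fits behave on these data. Named genes outside the members were the 10 of the wider list with the smallest exact test p. Others of the wider list (SOD3, GPX5, MAFK, BACH1, PRDX4, TXNDC17, GPX2, NFE2L2, KEAP1, MAFG, HMOX2, PARK7) and the pools singled out were chosen after their values were seen. The members, the lists and the tests were chosen with earlier results of these data known. No 2 pools were the same library (lowest chi-square over its degrees of freedom 64.45). Sequences, transcript lengths and genome positions were not used here. Alternatives were other tests, scalings, filters, pool sets and covariates, and each cow left out.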

Additional observations from a re-analysis of the deposited data

Results flagged for a closer look

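A gap test for a value far from the rest of its group was applied to 40 groups, the pools and the cow means of each member by diet, and 3 were singled out. For normally distributed values, chance alone gives about 5% of groups. The test was applied to CPM without logarithms, and its rate on such values was not tested. All 3 were the highest value of their group. SOD1 in C2.1 was at 53.9 CPM, the highest of the 7 control pools, in the pool that carried leukocyte transcripts. PRDX2 in M6.2 was at 1037 CPM, the highest of the 8 methionine-rich pools. The mean TXNRD1 level of cow 7, 465 CPM, was the highest of the 4 methionine-rich cows, and both of its pools showed it.

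In C3.2, the pool kept out of the comparisons, 8 genes of the members and the wider list stood above every other pool. Another 15 stood below every other pool, and 32 lay within the range. The share of all loci that did so is not given here, so these counts are not a result about the genes. Those above were SOD1 at 190 CPM, CAT at 140 CPM, PRDX1 at 2708 CPM, MSRB3 at 1017 CPM (1775 counts), BACH1 at 1350 CPM (2355 counts), PRDX4 at 80.8 CPM, TXNDC17 at 362 CPM and GPX2 at 2.29 CPM. PRDX4 was at 1.19, TXNDC17 at 1.04 and GPX2, with 4 counts, at 1.10 times the highest other pool. BACH1, a repressor of antioxidant genes, had at most 5 counts in any of the other 15 pools. Of the other regulators and targets, NFE2L2 (1.15 CPM), KEAP1 (5.73 CPM), MAFG (0 CPM), HMOX2 (2.87 CPM) and PARK7 (4.01 CPM) were below every other pool. The rest of that list lay within the range. The total count of C3.2 was 1745048, below that of every other pool, and its part in these values was not tested.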

How the results depend on the processing

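The number of loci called was 110 by the exact test and depended on the test and the pools. It was 67 by DESeq2, 55 with every locus of at least 1 count, 64 without C2.1, 341 with all 16 pools and between 62 and 153 when each cow was left out, and it was 0 by the quasi-likelihood test, limma voom, a filter of 10 counts in each pool, and with the pool number as replicate block or the number of blastocysts as covariate. At an unadjusted p under 0.05 the quasi-likelihood test passed 909 loci, voom 421, the stricter filter 262, the block 713 and the covariate 1009. Of the members, 1 passed that p with the stricter filter and 0 in the other fits just named. It was also 1 by the exact test without cow 7 (887 loci) and with all 16 pools (1251 loci). The members called by the rule of the study were 0 in every setting named above, except 1 (CAT) with all 16 pools. The wider list, with MSRB3 as its 1 call, had 0 calls by the quasi-likelihood test, voom, pools summed by cow, every locus of at least 1 count, the block or the covariate, 2 with all 16 pools, and 0 to 1 when a cow was left out. It had 0 by DESeq2, which gave MSRB3 no adjusted p, and 0 with the stricter filter, which MSRB3 did not reach. Members with cow means apart were 0 without C2.1 (2.17% of loci) or without logarithms (2.21% of loci) and between 1 and 2 when a cow was left out (3.93% to 5.30% of loci), the 2 being CAT and TXNRD1 without cow 7 (4.62%).

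Directions were less firm for the small fold changes. Fitting the number of blastocysts turned the log2 fold change of SOD2 to -0.045, PRDX1 to 0.30, PRDX3 to -0.18, PRDX5 to -0.31, TXN to -0.065, TXNRD1 to 0.27, NQO1 to -0.20, SESN1 to -0.43 and SESN3 to -0.40. TXNRD1 was 0.12 in pools summed by cow, 0.00027 with every locus, 0.12 with all 16 pools, 0.25 without C2.1 and 0.18 with the block. SOD1 was -0.87 with all 16 pools and its difference of cow means -0.014. GCLC was -0.21 by voom and -0.35 with the block, and SEPX1 -0.93 by DESeq2. With each cow left out, the log2 fold change ran from -0.62 to 0.034 for PRDX1, -0.011 to 0.39 for PRDX2, -0.12 to 0.34 for PRDX5, -0.077 to 0.65 for PRDX6, -0.18 to 0.35 for TXN, -1.13 to 0.28 for TXNRD1, -0.26 to 0.69 for GSR and -4.54 to 2.14 for GCLC. The difference of cow means ran from -0.074 to 0.46 for PRDX5 and from -0.050 to 0.38 for TXN. The cause of these changes was not tested. The log2 fold change of CAT was negative under every alternative run.

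Pools of the same number deviated together no more than others (mean r -0.0076 against 0.0076). The lane of each pool is not given, and whether pools of a number shared a batch was not tested.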
